A study of Rattus norvegicus with 23 samples.

Results

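Genes of MHC class II antigen presentation were followed in the dorsal hippocampus of 23 male F344 rats, with 1 array per animal. The 8 members were chosen by name: Cd74, the chains RT1-Da, RT1-Db1, RT1-Ba and RT1-Bb, the exchange factor subunits RT1-DMa and RT1-DMb, and the transcriptional regulator Ciita. Each was found on the array through the single probe set (a group of probes for 1 gene) that the platform annotation assigned to its symbol, so that 8 of 29211 probe sets are described. All 8 passed the signal minimum of the study's methods, an unlogged signal reaching 40 on 4 or more arrays, and stood among the 13339 probe sets tested.

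The rats fell into 4 groups. Young controls (YC, n = 6) were 5 to 6 months old, and their treatment is labelled sham, although the study's methods describe no injection for them. Aged controls (AC, n = 5) had received an adeno-associated virus (AAV) that carried eGFP. Short-term rats (ST, n = 6) and long-term rats (LT, n = 6) had received AAV that carried FKBP1b, a protein that binds and stabilizes the ryanodine receptor calcium channel. The labels give an exposure of 3 months for AC and ST and of 9 months for LT, from injections at 18, 18 and 12 months of age. The design text gives 13, 19 and 13 months instead. All 3 aged groups were 21 months old when their tissue was taken, every virus was injected into both hippocampi under a CaMKII promoter, which drives expression mainly in excitatory neurons, and all rats had been trained in a water maze. The ST and LT rats put on arrays were chosen for high FKBP1b expression among the rats of their groups, and the eGFP virus had the higher titer. Age, surgery and virus thus cannot be told apart in AC against YC. Nor can transgene, titer and selection for high FKBP1b expression in ST or LT against AC. Age at injection and time since injection also differ, in ST against AC by the design text and in LT against AC by the labels.

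MHC class II molecules are pairs of an alpha and a beta chain that display peptides from the endosome to CD4 T cells. RT1-Da and RT1-Db1 are the alpha and beta chains of RT1-D, the rat counterpart of human HLA-DR, and RT1-Ba and RT1-Bb are those of RT1-B, the counterpart of HLA-DQ. Cd74 encodes the invariant chain, which holds the new pair together and blocks its groove until it reaches the endosome. There the cathepsins trim the invariant chain down to a short fragment, and the RT1-DM dimer exchanges that fragment for peptide. Ciita is the coactivator that switches class II genes on, through factors bound to the X and Y boxes of their promoters. In brain these genes are transcribed mainly in microglia, in the macrophages of the brain's borders and in leukocytes that enter. A signal from a whole piece of hippocampus cannot tell fewer cells of a type from less RNA per cell.

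The promoters of the members are shown because the genes are known for a shared promoter layout and because only some of them moved together here. RefSeq's table of promoters (build GRCr8, 250 bases before to 50 after each annotated start) held 6 of the 8 members. RT1-DMb and Ciita were not among them. Capitals mark TNGCNAC, a core of the X box, and GATTGG, the Y box, where they occur on the gene's own strand. Both patterns were written down after the sequences had been seen. The stretches run 5′ to 3′ from 130 to 26 bases before the start, except that of Cd74, where the annotated gene reaches further upstream and 30 bases around the match are given.
RT1-Da, chr20:4515285-4515389, plus strand: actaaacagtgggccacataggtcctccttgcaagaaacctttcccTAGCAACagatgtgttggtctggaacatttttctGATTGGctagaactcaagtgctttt
RT1-Ba, chr20:4576927-4577031, plus strand: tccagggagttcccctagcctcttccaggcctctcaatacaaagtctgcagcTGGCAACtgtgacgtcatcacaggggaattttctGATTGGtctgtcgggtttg
RT1-Db1, chr20:4560188-4560292, minus strand: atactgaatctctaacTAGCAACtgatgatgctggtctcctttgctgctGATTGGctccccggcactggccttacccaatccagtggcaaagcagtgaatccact
RT1-DMa, chr20:4712361-4712465, minus strand: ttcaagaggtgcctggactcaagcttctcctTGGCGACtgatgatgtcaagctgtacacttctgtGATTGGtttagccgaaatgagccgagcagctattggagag
RT1-Bb, chr20:4604144-4604248, minus strand: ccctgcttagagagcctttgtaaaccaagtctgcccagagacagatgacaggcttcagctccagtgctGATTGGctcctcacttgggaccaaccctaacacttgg
Cd74, chr18:56527123-56527152, plus strand: cagttccacatTAGCAACgtgggcggagtg
RT1-Da, RT1-Ba and RT1-DMa had TNGCNAC and GATTGG 27 bases apart, and RT1-Db1 had them 26 bases apart. RT1-Bb held GATTGG without TNGCNAC, and Cd74 held TAGCAAC, 1 form of TNGCNAC, without GATTGG. The same order with 10 to 35 bases between, read on either strand, was present in 125 of the 33469 promoters in the table (0.373%), whereas TNGCNAC alone was present in 29.3%, TAGCAAC in 3.58% and GATTGG in 14.8%. In RT1-Db1 each pattern also had 1 match on the other strand, which is not capitalized. These are matches of letters only, and they do not separate the genes by what follows: the paired arrangement stood in RT1-Da, which rose in aged rats, and in RT1-Db1 and RT1-DMa, which did not pass the test.

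Aged control rats had higher Cd74 and RT1-Da than young controls. On average Cd74, the invariant chain, was 3.42-fold higher in AC, RT1-Da 2.75-fold and RT1-DMb 1.41-fold. The other chains lay at 1.65-fold (RT1-Ba), 1.07-fold (RT1-Db1) and 0.993-fold (RT1-Bb), and RT1-DMa at 1.08-fold. None of those 4 passed the test. Ciita was lower, at 0.892-fold. Signals are normalized intensities without unit, on which levels of different genes are not comparable, and a difference was called at a Benjamini-Hochberg adjusted p under 0.05 in limma over all 13339 probe sets. By this call 3 of 8 members rose, where 5.56% of all probe sets did, and 1 of 8 fell, where 4.18% of all did.

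Cd74 read 152, 125, 111, 106, 113 and 176 on the 6 YC arrays and 401, 471, 496, 513 and 339 on the 5 AC arrays. Every AC array was therefore above every YC array, and the lowest aged control still had 2.60 times the mean of the young. The difference was 1.78 on the log2 scale (SE 0.29, 95% interval 1.16 to 2.39), with an adjusted p of 0.0015 in limma. Group means were 130 ± 27.7 (SD, n = 6) and 444 ± 72.6 (SD, n = 5).

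RT1-Da, the alpha chain of RT1-D, read 59, 52, 45, 50, 47 and 50 in YC and 116, 174, 175, 179 and 80 in AC. The groups did not overlap, but AC replicate 5 lay much closer to the young rats than the other aged controls did. The log2 difference was 1.46 (SE 0.35, adjusted p = 0.014 in limma).

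RT1-Ba, the alpha chain of RT1-B, read 55, 58, 50, 76, 72 and 77 in YC and 98, 112, 115, 129 and 79 in AC. Again every AC array was above every YC array, replicate 5 by only a small margin. The log2 difference of 0.72 (SE 0.26) had an adjusted p of 0.075 in limma and was not called.

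The beta chains showed another picture. RT1-Db1 read 60, 56, 52, 58, 74 and 65 in YC and 74, 65, 55, 62 and 69 in AC, and RT1-Bb read 201, 186, 207, 209, 205 and 214 in YC and 180, 178, 189, 230 and 242 in AC. Both pairs of groups overlapped. The log2 differences were 0.10 (95% interval -0.08 to 0.27) for RT1-Db1 and -0.01 (-0.19 to 0.17) for RT1-Bb, both below the estimates for the alpha chains. The difference between chains was not tested. Class II genes vary between rat strains and resemble each other within a family, and how the probes of each set match the F344 sequence was not tested.

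**Figure D1:**
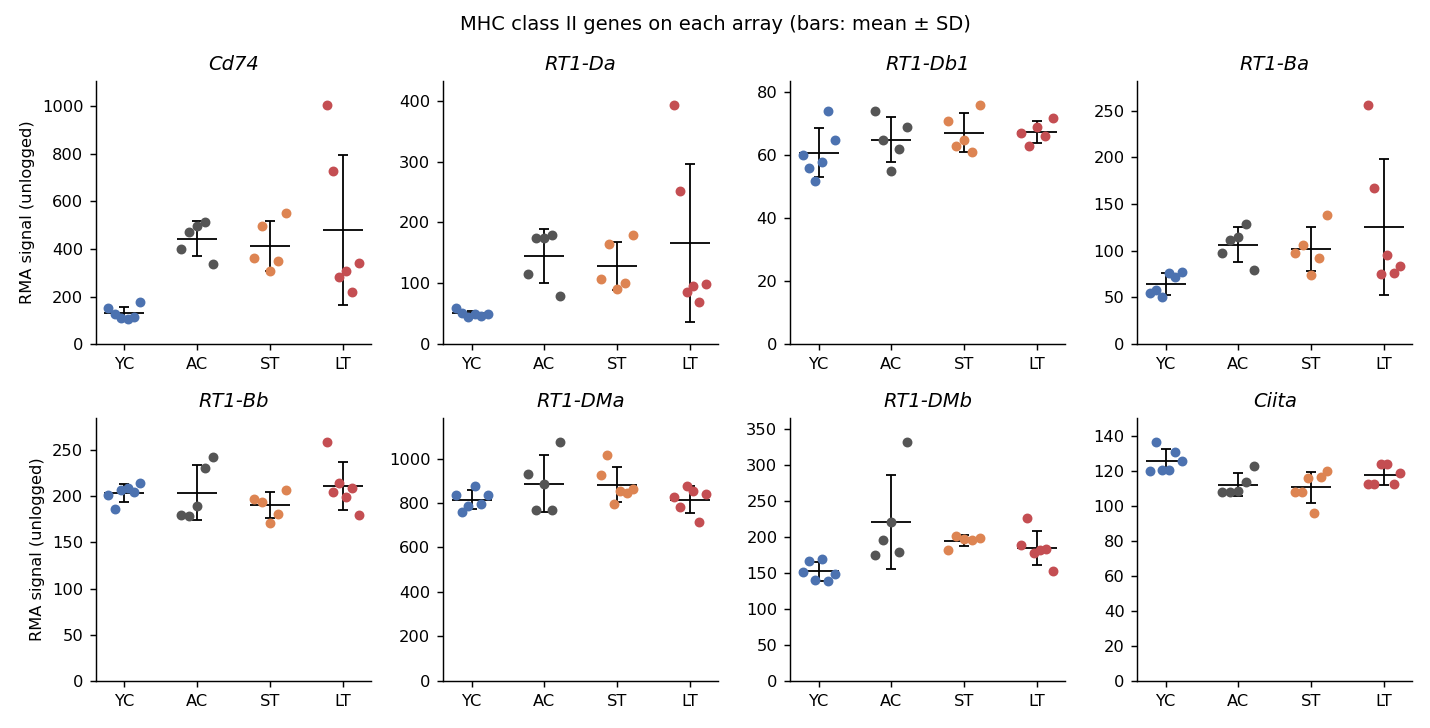
RMA signal (unlogged, vertical axis from 0) of each of the 8 genes on every array, by group (YC, AC, ST, LT), 1 point per rat, with the mean and SD as bars. Cd74, RT1-Da and RT1-Ba have all AC points above all YC points and 2 high LT points each, while RT1-Db1, RT1-Bb and RT1-DMa stay level.

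Of the subunits of the peptide exchange factor, RT1-DMb rose in AC and RT1-DMa did not pass the test, and the difference between them was not tested. RT1-DMb read 151, 167, 140, 169, 138 and 149 in YC against 175, 196, 221, 179 and 332 in AC, all above the young rats. It rose by 0.50 on the log2 scale (SE 0.12, adjusted p = 0.016 in limma). AC replicate 5 was far above the rest, and without it the difference was 0.34 (adjusted p = 0.017). RT1-DMa read 835, 761, 786, 877, 795 and 836 in YC and 930, 770, 886, 769 and 1076 in AC. Its groups overlapped, with 3 of 5 AC arrays above all YC arrays, and its log2 difference was 0.11 (95% interval -0.05 to 0.27, adjusted p = 0.36).

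Ciita, the regulator of all these genes, had the opposite sign. It read 120, 137, 121, 121, 131 and 126 in YC and 108, 108, 109, 114 and 123 in AC. The groups overlapped through AC replicate 5. The log2 difference was -0.16 (SE 0.053), and its adjusted p of 0.0497 made it number 1299 of the 1300 probe sets called in this comparison. That call was lost in 29 of 37 alternative settings, with adjusted p from 0.021 to 0.17 over all of them, while the sign was the same in all 37.

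In all, 4 of the 8 members, Cd74, RT1-Da, RT1-Ba and RT1-DMb, had every AC array above every YC array. Over all probe sets tested 3.21% had that order and 1.88% the reverse order, which no member had. The study's methods used Fisher's LSD on unlogged signals after a test across groups, both at an unadjusted p of 0.05. By that rule 3 of 8 members were called, Cd74, RT1-DMb and Ciita, beside 18.3% of all probe sets, and RT1-Da passed the pairwise step but not the test across groups (unadjusted p = 0.074). The arrays used here hold fewer aged controls than the study profiled, and fewer probe sets were tested, so these are not the study's own calls. With Benjamini-Hochberg adjustment of the LSD, which the methods did not apply, RT1-DMb alone was under 0.05, beside 8.91% of all probe sets, and Cd74 had an adjusted p of 0.072.

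Among the 5 AC arrays, the highest Cd74, RT1-Da and RT1-Ba came from replicate 4 and the lowest from replicate 5. The highest RT1-Bb, RT1-DMa, RT1-DMb and Ciita came from replicate 5. The aged control lowest in Cd74 and the alpha chains was therefore highest in both exchange factor subunits. On that array the microglia list described below scored 0.65 log2 units above the mean of all arrays, against -0.03 to 0.05 on the other 4 AC arrays, and the list of hippocampal neurons scored -0.50. The part of tissue composition in these values was not tested.

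**Figure D2:**
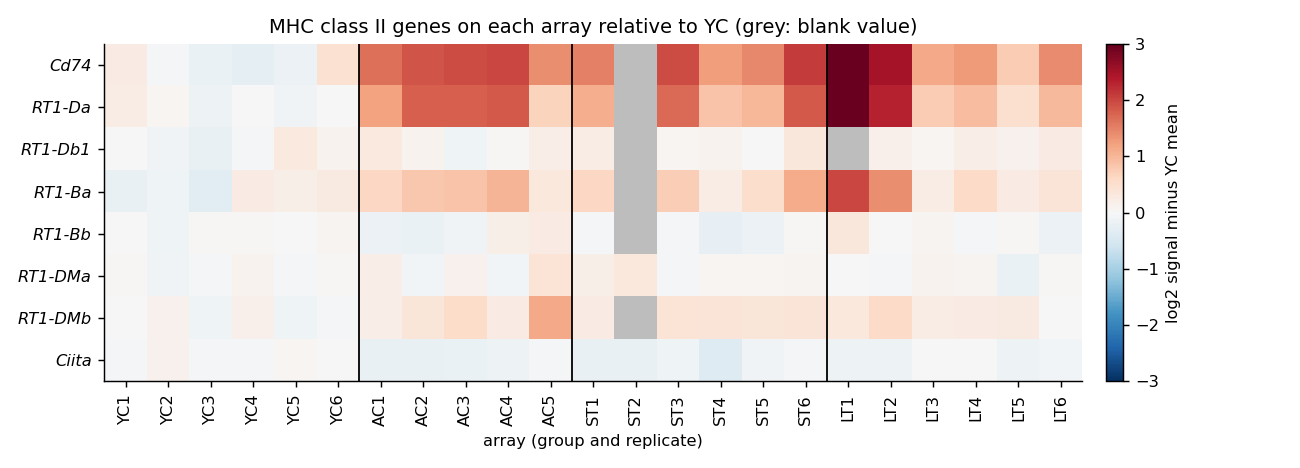
Log2 signal of each gene (rows) on each of the 23 arrays (columns, ordered by group and replicate) minus the YC mean of that gene, with red above and blue below the YC mean and grey for a blank value. Red rows for Cd74, RT1-Da and RT1-Ba run through all aged groups and are deepest on LT1 and LT2, and 6 of 8 cells of ST2 are grey.

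In the aged FKBP1b rats no class II gene differed from aged controls by the test, and the intervals of Cd74 and the alpha chains were wide. Cd74 read 363, 497, 307, 350 and 550 on the 5 ST arrays with a value and 1005, 726, 283, 309, 218 and 341 in LT. Its ST mean was 413 ± 104 (SD, n = 5) and its LT mean 480 ± 314 (SD, n = 6). ST overlapped AC, and LT lay on both sides of it, with 2 arrays above every AC array and 3 below every one.

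Against AC, the log2 difference of Cd74 was -0.12 in ST (95% interval -0.76 to 0.52) and -0.10 in LT (-0.71 to 0.51). These intervals leave out a change as large as the difference between AC and YC, and they include moderate changes in either direction. The fit shares 1 estimate of spread among the 4 groups, so the wide spread of LT also enters the interval of ST against AC. The log2 SD of Cd74 was 0.86 in LT, 0.36 in ST and 0.25 in AC. Against YC, the SE of Cd74 was 0.29 in ST and 0.28 in LT. With only the groups compared in the fit, it was 0.17 and 0.33.

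RT1-Da read 107, 164, 91, 101 and 179 in ST and 393, 251, 85, 96, 70 and 99 in LT. RT1-Ba read 98, 106, 74, 92 and 138 in ST and 256, 167, 75, 95, 76 and 84 in LT. For both alpha chains LT replicates 1 and 2 were above every AC and ST array, and the other 4 LT arrays were at or below the AC median. The log2 differences from AC were -0.16 and -0.05 for RT1-Da in ST and LT, and -0.08 and 0.09 for RT1-Ba.

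The remaining members varied less. RT1-Db1 ran from 61 to 76 in ST and from 63 to 72 in LT, RT1-Bb from 171 to 207 and from 180 to 259, and RT1-DMa from 794 to 1017 and from 713 to 876. RT1-DMb read 181, 201, 197, 196 and 199 in ST and 188, 226, 177, 181, 183 and 152 in LT, between the medians of YC and AC for all but 4 of these 11 arrays. Ciita ran from 96 to 120 in ST and from 113 to 124 in LT.

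No member passed the test in ST against AC, in LT against AC, in both FKBP1b groups averaged against AC, or in LT against ST. The lowest unadjusted p among the 8 was 0.29 in ST against AC and 0.08 in LT against AC, both for RT1-DMb. Fisher's LSD on unlogged signals gave no member an unadjusted p under 0.05 in these comparisons, where it gave one to 9.78%, 12.5%, 10.4% and 12.4% of all probe sets. Over all probe sets limma called 0% in ST against AC (1310 had an unadjusted p under 0.05), 0.075% in LT against AC, 0.03% for the mean of both and 0.0075% in LT against ST, so that nearly all other genes were not called either.

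**Figure D3:**
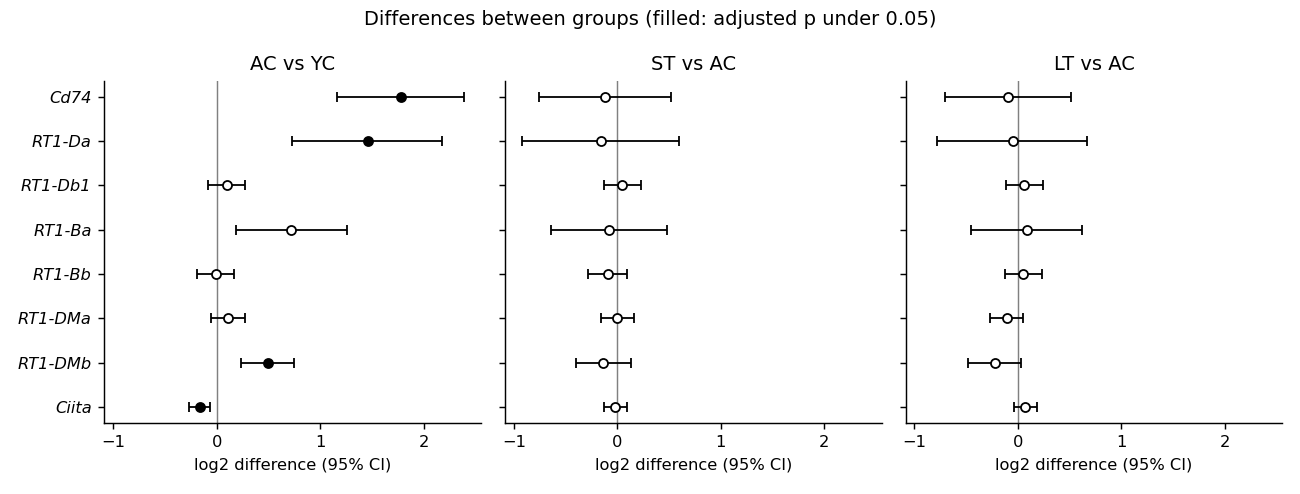
Log2 difference of each gene (rows) with its 95% confidence interval from limma, for AC against YC, ST against AC and LT against AC, where filled points have an adjusted p under 0.05. Cd74 and RT1-Da lie at 1.78 and 1.46 in AC against YC, and all intervals of ST and LT against AC include 0.

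Set against young controls, both FKBP1b groups had higher Cd74 and RT1-Da. Cd74 was 1.65 higher on the log2 scale in ST (adjusted p = 0.0043 in limma) and 1.68 higher in LT (adjusted p = 0.0061), and all ST and LT arrays with a value were above all YC arrays. RT1-Da was 1.30 higher in ST (adjusted p = 0.039) and 1.40 higher in LT (adjusted p = 0.046). Ciita was lower by 0.19 in ST (log2 difference -0.19, adjusted p = 0.037), a call lost in 8 of 37 alternative settings (adjusted p up to 0.095), among them the fits without ST replicate 4 and without YC replicate 2. Its log2 difference in LT, -0.10, was not called. In ST against YC 2 of 8 members rose, beside 2.71% of all probe sets, and 1 fell, beside 1.44%. In LT against YC 2 of 8 rose, beside 0.81%, and none fell, beside 0.225%. The RT1-Da call in ST was lost in 10 of 37 alternative settings and that in LT in 26, among the latter the fit without LT replicate 1, where the log2 difference was 1.09 (adjusted p = 0.075), and the fit without LT replicate 2 (1.22, adjusted p = 0.10). The YC arrays are shared by these comparisons with that of AC. The moderated F test across all 4 groups called Cd74 (adjusted p = 0.0018) and RT1-Da (adjusted p = 0.024), where it called 5.46% of all probe sets.

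The spread within LT was itself large. The log2 SD of Cd74 over the 6 LT arrays was 0.86, that of RT1-Da 1.00 and that of RT1-Ba 0.73, beside a median of 0.081 over all probe sets tested. Only 23, 19 and 33 of the 13339 probe sets had a larger LT spread than Cd74, RT1-Da and RT1-Ba. LT replicate 1 had 7.70 times the YC mean of Cd74 and 7.78 times that of RT1-Da, and LT replicate 5 had 1.67 and 1.39 times. In AC the log2 SD of Cd74 was 0.25, which 10.3% of probe sets exceeded. For RT1-Da in AC it was 0.51, which 1.54% exceeded, and for RT1-Ba 0.27, which 8.27% exceeded. In ST, over the arrays with a value, it was 0.36 for Cd74, 0.44 for RT1-Da and 0.33 for RT1-Ba. Only 0.405%, 0.142% and 0.585% of probe sets exceeded these. In YC 1.06%, 14.4% and 1.42% exceeded Cd74, RT1-Da and RT1-Ba. A high rank in spread was therefore not particular to LT. RT1-Db1, RT1-Bb, RT1-DMa, RT1-DMb and Ciita had LT spreads of 0.07 to 0.18.

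A gap in the values touches the ST group. ST replicate 2 had no value for 6 of the 8 members, all but RT1-DMa and Ciita, although only 17 of the 13339 probe sets tested (0.127%) were blank on that array. The other 11 blanks included Cd68, C1qa, C1qc, Ctsc and B2m, which encode a macrophage lysosomal protein, complement subunits, a cathepsin and the light chain of MHC class I. RT1-Db1 was also blank on LT replicate 1, the array highest in Cd74. AC had no blanks. The study's methods set values beyond 2 SD of a group mean to missing. No source used here says that the blanks are such values, and a group of 5 cannot hold one, since no value of 5 lies further than 1.79 SD from their mean. On the unlogged scale 189, 188 and 175 probe sets without a blank in YC, ST and LT still held a value beyond 2 SD. The values are rounded, so the rule could not be checked exactly.

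Were the blanks values beyond 2 SD, and on the unlogged scale, the blank for Cd74 would stand for a signal above 1533, since the low side falls below 0. On the log2 scale it could lie above 5759 or below 28. The members with a value on ST replicate 2 read 1017 for RT1-DMa, the highest of ST, and 108 for Ciita, within the range of the other ST arrays. The blanks were left blank and not filled in, so that ST means of 6 members rest on 5 rats.

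Cd74, RT1-Da and RT1-Ba varied together from rat to rat. Over the 22 arrays with a value the Pearson correlation of log2 signal with Cd74 was 0.97 for RT1-Da (Spearman rho 0.98) and 0.89 for RT1-Ba (rho 0.94), and that between RT1-Da and RT1-Ba was 0.94. With each group's mean removed, these were 0.95, 0.89 and 0.91, so that the likeness did not rest on the difference between young and aged rats. RT1-Da and RT1-Ba came first and second of all other probe sets by both measures. RT1-DMb had 0.57, which fell to 0.08 within groups, RT1-Db1 0.37 (21 arrays), RT1-Bb 0.14, RT1-DMa 0.12 and Ciita -0.53, which was -0.07 within groups. The correlations within groups weigh LT most, where Cd74 and the alpha chains spread most. Among YC arrays replicate 4 had the lowest Cd74 (106) but RT1-Ba of 76, next to replicate 6 (77), which was highest in both. Arrays share age group, tissue composition and normalization, and the correlations are given as descriptions.

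Outside the members, the genes most like Cd74 over all arrays were Lamp1 (0.87), a lysosomal membrane protein, Appl2 (0.82), Rasgrp3 (0.81), Pdgfa (0.81), B2m (0.81), Ptma (0.80), Maob (0.80) and Bmp2k (0.79). Their correlations within groups were 0.34 to 0.52, and all 8 were called higher in AC against YC (adjusted p from 0.00027 to 0.025 in limma). With group means removed a separate set came out, led by Rpe (0.81), Nop16 (0.72) and Il3ra (0.72) and followed by Hibadh, Akirin2, Tbl1xr1, Tex2 and Gabarapl2 at 0.63 to 0.67. None of these 8 passed the test in AC against YC.

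The machinery that prepares peptides moved in part with the class II genes. Of the 12 genes for peptide loading and processing, 6 rose in AC against YC and none fell, with a median log2 difference of 0.26 beside -0.006 over all probe sets tested. The 6 were the proteases Ctss (0.35, adjusted p = 0.0071 in limma), Lgmn (0.30), Ctsd (0.27), Ctsl (0.26), Ctsz (0.54) and Ctsc (0.50). Ctss, the cathepsin known for the last cuts of the invariant chain, had mean signals of 2020 in YC and 2600 in AC. Of the AC arrays replicate 5 read 3415, and the others read 2332 to 2478, still above the highest YC array (2099). Ctsb lay at 0.04, and Ifi30, the lysosomal thiol reductase, at 0.38 with an adjusted p of 0.066. RT1-DOa and RT1-DOb, the inhibitor of the exchange factor, lay at -0.03 and -0.14 and were not called.

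Of 11 measured regulators of class II transcription, only Irf1 rose (0.23, adjusted p = 0.038). The list's median was 0.01. The promoter-binding subunits Rfx5, Rfxap and Rfxank lay at -0.04, -0.06 and -0.04, and Nfya, Nfyb and Nfyc at -0.09, 0.06 and 0.01. The mean signal of Rfx5 was 235 in YC and 229 in AC.

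Of 11 interferon gamma genes, 4 rose: the receptor chain Ifngr1 (0.31), Irf1, and the induced GTPases Gbp2 (0.67) and Igtp (0.21). Gbp2 had mean signals of 95 in YC, 153 in AC, 119 in ST and 104 in LT. Ifng itself stayed at means of 42.5 to 47.0, near the signal minimum, with a log2 difference of 0.05 in AC against YC. The chemokine Cxcl10 lay at -0.02.

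Among 5 measured genes of class II turnover, Il10rb, a chain of the interleukin 10 receptor, rose by 0.60 (adjusted p = 0.00034), while the ubiquitin ligases Marchf1 and Marchf8 lay at 0.16 and 0.07. Among 7 genes of T cell contact, Cd4, which rat macrophages and microglia also express, rose by 1.00 (adjusted p = 0.0067), with mean signals of 205 in YC and 453 in AC. The costimulatory ligand Cd86 rose by 0.52 (adjusted p = 0.022) and Lag3, a class II receptor, fell by a log2 difference of -0.35 (adjusted p = 0.029). Of the 5 partners of Cd74 at the cell surface, none was called, and its ligand Mif lay at 0.11. A further class II gene, RT1-Ha, was at means of 36.0 to 38.5 with a log2 difference of -0.11.

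**Figure D4:**
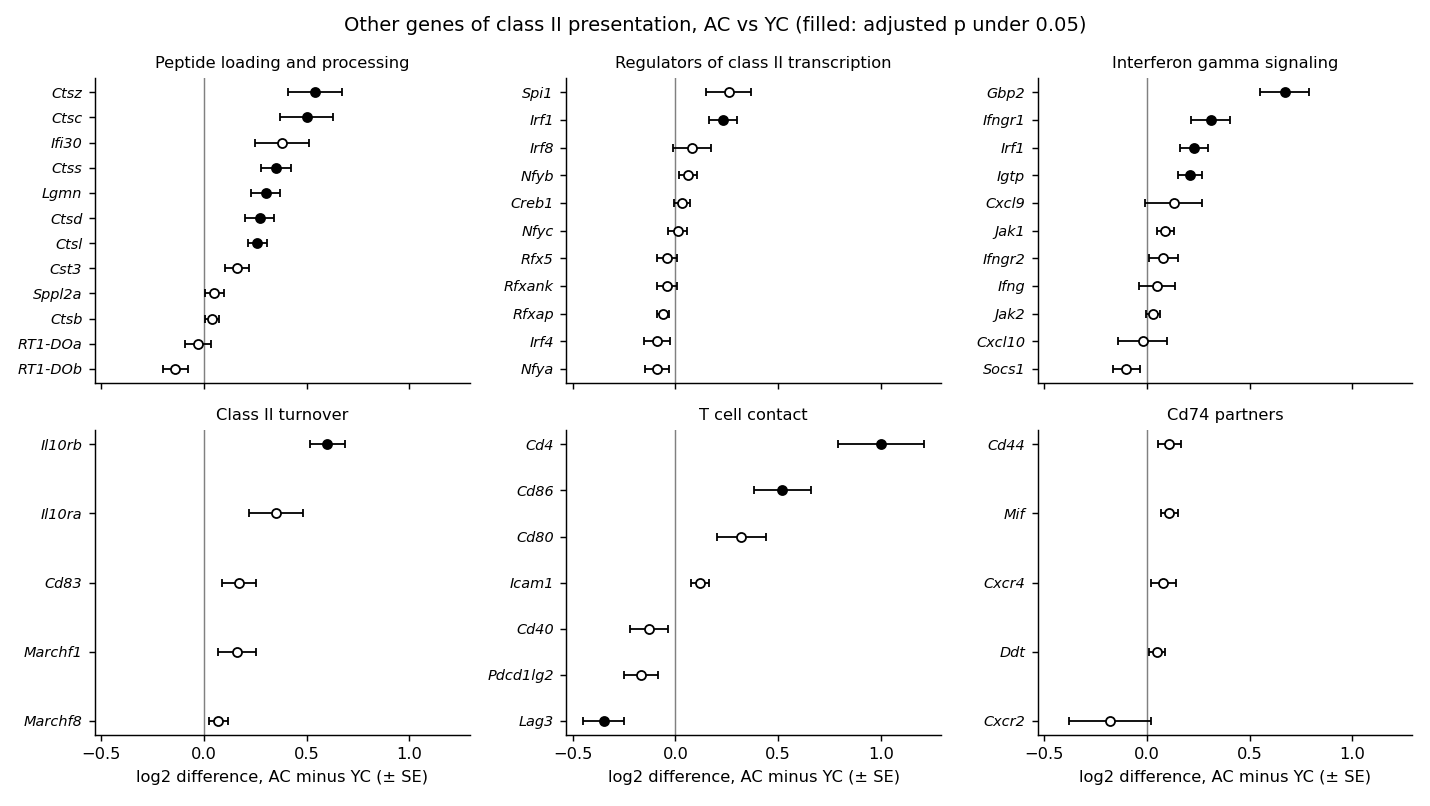
Log2 difference (AC minus YC, horizontal axis) with its SE for every tested gene of 6 lists on class II presentation, where filled points have an adjusted p under 0.05 in limma. Filled points are frequent among the peptide loading genes (6 of 12) and rare among the regulators (1 of 11), and Cd4 reaches 1.00.

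In all, 14 different genes of these lists were called in AC against YC, and Lag3 was the 1 that fell. The lists held 12, 11, 11, 5, 7, 5 and 1 genes tested, with Irf1 in more than 1 of them. Over all probe sets tested 5.56% were called higher and 4.18% lower in AC against YC. In ST against AC and in LT against AC no gene of these lists was called, where 0% and 0.075% of all probe sets were.

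Of microglia, border macrophages and leukocytes, which could carry class II, only microglia had most of their measured markers called higher in AC against YC. Of 12 microglial genes measured, 8 rose in AC against YC (Aif1, Csf1r, Ctss, Cx3cr1, Gpr34, P2ry12, Trem2 and Tyrobp), with a median log2 difference of 0.39. Ctss stands in this list and in that of peptide loading. The microglial signal, summed over the 11 of these genes with a value on every array, ranged over 4730 to 4980 among YC rats, over 5723 to 9199 among AC rats, and in ST and LT over 5822 to 7242 and 5824 to 7263, so that all aged groups were above the young. The 9199 came from AC replicate 5, and the other AC arrays lay at 5723 to 6012, so that this array raised the AC means of these genes. The increase of Cd74, 1.78, was larger than that of every microglial gene measured, of which Tyrobp had the largest, 0.76. Differences between these increases were not tested, nor was the part of microglial number in the Cd74 difference.

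Markers of border-associated macrophages gave 2 genes up (Mrc1 0.37, Folr2 0.49) and 1 down (Siglec1 -0.32) of 8, and their summed signal overlapped between young (763 to 896) and aged rats (839 to 1036 for AC, 772 to 830 for ST, 825 to 907 for LT). Of 8 T cell genes and 4 B cell genes tested none was called. Cd3e had mean signals of 126 in YC and 118 in AC, and Ms4a1 stayed at 28.2 to 32.4, under the signal minimum. Of 6 dendritic cell genes tested 1 fell (Batf3 -0.17) and none rose, with Clec9a and Cd209a under the minimum. Of 7 monocyte and neutrophil genes tested 1 fell (Mpo -0.20) and none rose, with S100a8 at 8.67 to 10 in all groups. Summed signals of these 4 lists overlapped between YC and AC. The monocyte and neutrophil score was highest of all arrays on AC replicate 5, at 0.44, against -0.10 to 0.02 on the other AC arrays. Of 10 endothelial genes 8 rose in AC against YC, Pecam1 (0.71), Cldn5 (0.48), Kdr (0.46), Abcb1a (0.42), Flt1 (0.39), Esam (0.32), Slco1a4 (0.23) and Tek (0.19), and the summed signal was 3401 to 3518 in YC against 3592 to 5031 in AC. Pecam1 was also lower in LT than in AC (log2 difference -0.57, adjusted p = 0.039 in limma) and in both FKBP1b groups averaged (-0.54, adjusted p = 0.017). The endothelium score in AC was highest on replicates 3 and 4 (0.44 and 0.42), which also carried adjacent tissue, as described next. It was 0.24 on replicate 5, and -0.04 and 0.09 on replicates 1 and 2, against -0.17 to -0.13 in YC. LT replicates 2 and 5, with adjacent tissue too, scored 0.16 and -0.05. The part of adjacent tissue in the endothelial differences was not tested. The 9 neuronal genes tested gave no call in AC against YC.

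Tissue next to the hippocampus was present on some arrays. The choroid plexus list, 13 genes with Ttr foremost, scored 2.80 and 3.38 on AC replicates 3 and 4 and 2.78 and 2.85 on LT replicates 2 and 5, and -1.11 to 0.58 on all others. Its summed signal spanned 3462 to 4322 for YC rats, 2801 to 39844 for AC rats, 2909 to 3520 for ST rats and 4140 to 32511 for LT rats. The meninges list ran with it, at scores of 0.43, 0.54, 0.44 and 0.47 on those 4 arrays, and 0.40 on AC replicate 5. No choroid plexus gene was called in AC against YC, while of 10 meningeal genes Ogn (1.11) and Dcn (0.76) rose and Col3a1 fell (-0.21).

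Cd74 and these scores did not have the same order over the arrays. In LT, replicate 5 had a choroid plexus score of 2.85 and the lowest Cd74 of its group, 218, whereas replicate 1 had a score of 0.58 and the highest, 1005. In AC, replicates 3 and 4 had the highest Cd74, 496 and 513, and replicate 2, with a score of -0.86, had 471. Without those 4 arrays the log2 difference of Cd74 in AC against YC was 1.64 (SE 0.31, adjusted p = 0.011) and that of RT1-DMb 0.57 (adjusted p = 0.034), while that of RT1-Da was 1.22 and lost its call (adjusted p = 0.083). With the score as a covariate Cd74 was at 1.66 (adjusted p = 0.0057) and RT1-Da at 1.28 (adjusted p = 0.041).

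**Figure D5:**
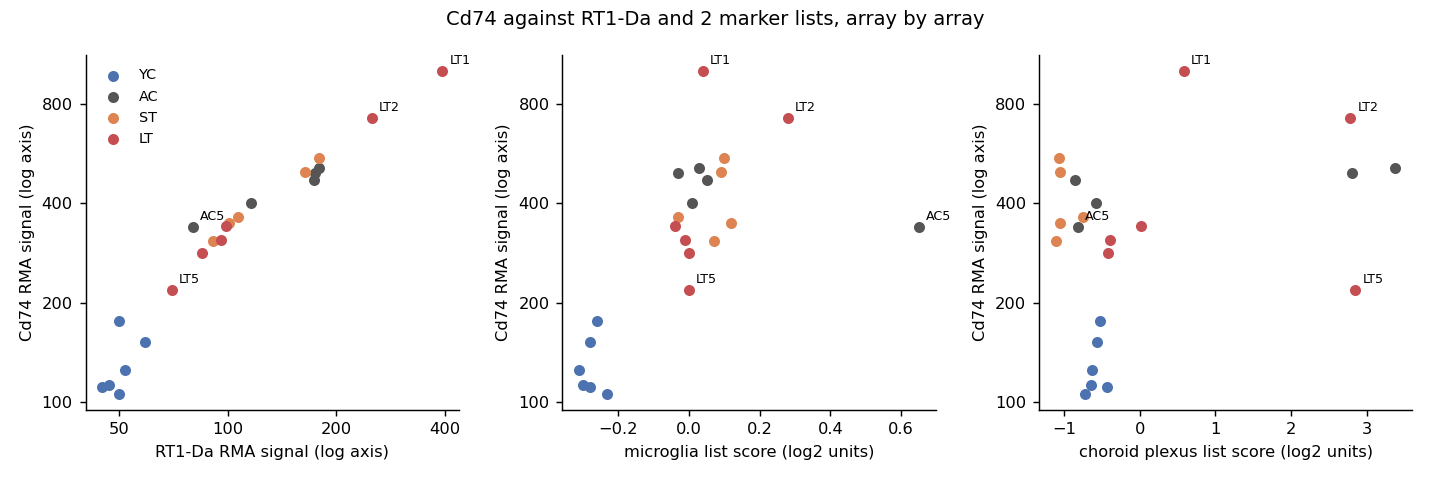
Cd74 signal (vertical log axis) on each array with a value against RT1-Da signal (log axis), the microglia score and the choroid plexus score, where a score is the mean log2 signal of a list minus its mean over all arrays and colors give the group. Points fall along a line against RT1-Da, while LT1 and LT5 stand at the top and bottom of the aged rats at microglia scores of 0.04 and 0.00.

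Microglial scores separated young from aged rats but did not order the aged rats by Cd74. LT replicate 1 had a microglia score of 0.04 and LT replicate 5 one of 0.00, although their Cd74 signals were 1005 and 218. LT replicate 2, the second highest in Cd74 at 726, scored 0.28, and AC replicate 5, with the highest score of all at 0.65, had the lowest Cd74 of AC. RNA integrity numbers were 9.4 to 9.5 in YC and 8.9 to 9.8 in AC, and array medians were 134 to 141 throughout. With the RNA integrity number as a covariate the RT1-Ba difference in AC against YC was 0.79 and passed the threshold (adjusted p = 0.037), and it also did so without LT replicate 1 (0.72, adjusted p = 0.026) and with only YC and AC in the fit (0.72, adjusted p = 0.031). It missed the threshold in the other 34 of 37 settings.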

How the data were processed

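Affymetrix gene arrays (Rat Gene ST) were run on total RNA of dorsal hippocampus, 1 rat each. The deposited intensity values are RMA signals that the authors made with Partek (versions not given in the sources used here), unlogged and rounded to whole numbers, with 758 blanks among 29211 probe sets and no depth or detection call, so the number of arrays limits the precision. The platform annotation gave 1 symbol to 15307 probe sets, several to 323 and none to 13581. Groups came from the labels.

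The log2 of each signal was fitted with limma 3.58.1 in R 4.3.3, with 1 mean per group over all 23 arrays and empirical Bayes moderation. Probe sets of 1 symbol entered the test if their signal reached 40 on 4 or more arrays, with Benjamini-Hochberg adjustment over all of them and calls at 0.05. Blanks were left out of the fit. The p-values measure the spread between rats. The code was tested on simulated data. Alternatives left out each array or the 4 arrays high in choroid plexus genes, added covariates or the replicate number, and changed the test, filter and normalization.

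The members and gene lists were chosen with earlier results of these data known. Named were all members, every list gene called in AC against YC or in the FKBP1b comparisons, otherwise up to 3 per list, and the 8 genes most like Cd74 by each measure. Some further list genes are named for their role.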

Additional observations from a re-analysis of the deposited data

Results flagged for a closer look

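RT1-DMb on ST replicate 1 stood apart from the other ST arrays. It read 181 against 196 to 201 on the other 4 with a value, so that its gap to the nearest was 0.75 of the group's range, above Dixon's critical value of 0.710 for 5 values. Chance alone passes that limit in about 1 group in 20, and 32 groups were looked at. RT1-DMb on AC replicate 5 came next, at 332 with a ratio of 0.707, just under the limit.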

How the results depend on the processing

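Each comparison was repeated in 37 alternative settings (36 for the F test), and no difference that was called changed sign. The 4 calls in AC against YC became 2 once the 4 arrays rich in choroid plexus genes were removed and 1 with ANOVA and Fisher's LSD on unlogged signals (its p-values adjusted over all probe sets, as throughout here), and 3 to 4 when single arrays were left out. The 3 calls in ST against YC became 5 with only the groups compared and 1 with ANOVA, and 1 to 4 when single arrays were left out. The 2 calls in LT against YC became 1 without the choroid plexus arrays, with their score as a covariate, with the replicate block, with only the groups compared, without a signal minimum, with all probe sets, with array medians made equal and with a variance trend, 0 with ANOVA, and 1 to 2 when single arrays were left out. The 2 calls of the F test became 0 with ANOVA and 1 to 4 when single arrays were left out. ST against AC, LT against AC, their mean against AC and LT against ST had 0 calls in all settings. The causes were not tested.

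Cd74 was called in AC, ST and LT against YC in 36 of 37 settings each, the exception being ANOVA (adjusted p of 0.072, 0.14 and 0.12). RT1-DMb lost its call in AC against YC with only the groups compared (adjusted p = 0.078). RT1-Da lost its call in ST against YC in 10 of 37 settings and in LT against YC in 26. The 14 called genes of the pathway lists were 10 without the choroid plexus arrays and 17 with medians made equal. Same-numbered arrays of different groups did not deviate together (33 pairs, correlation -0.38 to 0.20, 7 over 0.1), so the numbers were not read as pairs, and the replicate block left RT1-Da in LT against YC at an adjusted p of 0.061. Signals near the minimum of 40, as for RT1-Db1 and Ifng, limit what differences can be seen. RT1-Da and RT1-Ba were also near it in YC, at 45 to 59 and 50 to 77. Their fold differences from YC therefore start close to that minimum.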

Other observations

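ST replicate 2 was blank for 11 tested probe sets outside the class II genes, and several of these belong to macrophages or to the response to interferon. The other ST arrays ran from 67 to 77 for Cd68, from 588 to 642 for C1qa, from 179 to 209 for C1qc, from 106 to 126 for Ifi47 and from 3362 to 3475 for B2m. The remaining 6 were Ctsc, Lilra5, Plac8, Gapt, Aptx and Hdac1. ST replicate 2 had a microglia score of 0.31, the highest of ST, where the others were -0.03 to 0.12. Other arrays of YC, ST and LT had 5 to 24 blanks among the probe sets tested, and none of those fell on a class II gene except RT1-Db1 on LT replicate 1.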
